A study of Mus musculus with 16 samples.

Results

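After lipopolysaccharide (LPS), livers of mice whose p65 carries the S534A substitution were compared with wild-type (WT) livers, gene by gene. The members are the 4 arrays labelled S534A with LPS and the 4 labelled WT with LPS, 8 of the study's 16 arrays, chosen by their sample titles. Of the named genes, 15908 passed a filter on low values and were tested. No gene differed between the genotypes after correction for multiple testing (limma with Benjamini-Hochberg adjustment, 0 of 15908 genes, 0% called). The inflammatory genes that LPS raised most stood at similar levels in both genotypes, with intervals narrow enough to bound most differences below 1.5-fold. Of 33 gene lists, cholesterol synthesis genes and Kupffer cell markers had the median differences farthest from 0 over the 8 arrays, both negative, and no member of either passed the test.

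All mice were males labelled C57Bl/6. WT mice and mice with the knock-in allele either received LPS at 1 mg/kg or were untreated, with 4 liver samples in each of the 4 groups. In the knock-in, the codon of the serine that the name S534A refers to, in exon 10 of the p65 gene Rela, is changed to one for alanine in the germline, so every cell type of the liver carries it. The line came from 2 embryonic stem cell clones, the resistance cassette was removed by a recombinase, and the mice were backcrossed 5 times and then bred to homozygosity. How long after LPS the livers were taken is not stated in the labels, and no group is labelled as given vehicle. The series text names the LPS dose for the untreated S534A group too, and the sample titles and source names, which call these livers untreated, were followed. No label states whether the 4 samples of a group are 4 animals, so the p-values reflect the spread among samples alone, and that spread could be technical.

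NF-kB is a family of transcription factors held in the cytoplasm by IkB proteins. Endotoxin binds TLR4 on Kupffer cells, the macrophages of the liver sinusoids, and on other cells, the IKK kinases mark IkB for destruction, and p65 with its partner p50 enters the nucleus and binds kB sites in the promoters of cytokine, chemokine and feedback inhibitor genes. Several kinases phosphorylate p65 at this serine of its transactivation domain, and the substitution to alanine removes that site.

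Each value is a log2 level from RMA, which corrects background, aligns the distributions of the arrays and summarises the probes of a probe set, so a difference of 1 is 2-fold. Differences are S534A minus WT after LPS unless another is named, with the standard error (SE) of a fit to all 16 arrays. Albumin, the hepatocyte plasma protein gene Alb, had 14.14 ± 0.04 (SD, n = 4) in WT and 14.12 ± 0.07 (SD, n = 4) in S534A. Both groups read at similar levels for this transcript of the labelled tissue. The highest value on any array was 14.54, so Alb lay near the top of the range, where a difference could be hard to see. WT LPS array 2 stood apart from the other 7 LPS arrays. It lay at 31.5 on the first principal component, which held 43.8% of the variance, against -11.1 to 7.38 for the others. Its median absolute deviation from the gene means was 0.182, against 0.065 to 0.091. Over genes, the median SD was 0.145 in the WT LPS group, 0.095 without that array, and 0.108 in the S534A LPS group. Values without it stand beside many, not all, of the results that moved with it.

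For sequence context, 4 promoters of classical NF-kB targets are shown as 80-base stretches around a match to the kB consensus, which is in capitals. The windows come from RefSeq on GRCm38.p6, written 5′ to 3′ on the strand of the gene. Cxcl1 lies at chr5:90891139-90891218 on the plus strand, Cxcl10 at chr5:92348948-92349027 on the minus strand, Il6 at chr5:30013034-30013113 on the plus strand and Nfkbia at chr12:55492648-55492727 on the minus strand.
Cxcl1: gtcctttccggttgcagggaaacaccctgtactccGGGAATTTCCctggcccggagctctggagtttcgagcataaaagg
Cxcl10: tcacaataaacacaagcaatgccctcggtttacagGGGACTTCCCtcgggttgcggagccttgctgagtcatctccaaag
Il6: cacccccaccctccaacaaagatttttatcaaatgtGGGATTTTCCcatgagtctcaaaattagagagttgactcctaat
Nfkbia: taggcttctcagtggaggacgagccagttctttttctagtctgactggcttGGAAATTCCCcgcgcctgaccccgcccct

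The consensus was searched on both strands of windows from 250 bases before to 50 bases after each start, where overlapping matches were allowed. It was found in 4.51% of 32851 such windows and in 6.33% of tested genes with an entry. Of 33 NF-kB targets with an entry, 17 held a match (51.5%) and 16 did not. The median difference was -0.00 with a match and -0.03 without one, and the median LPS effect was 1.65 and 1.47. A match is a run of letters and not a measured binding site.

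Rela itself, the gene that carries the knock-in, had one level in both genotypes after LPS. The WT arrays read 11.42, 11.31, 11.37 and 11.47 and the S534A arrays 11.38, 11.43, 11.37 and 11.41. All S534A values lay inside the WT range, and the difference was 0.00 ± 0.08 (SE), with a 95% interval from -0.16 to 0.17. LPS raised Rela by 1.22 ± 0.08 in WT and by 1.41 ± 0.08 in S534A, and this and each LPS effect given below as a rise passed the adjusted threshold of the same limma fit. Its 1 probe set measures the transcript level and does not read the substitution, so it checks no genotype label.

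Among NF-kB target genes, 41 of 45 listed were measured and 0 passed the adjusted threshold. One, Birc3, an inhibitor of apoptosis, lay at an unadjusted p under 0.05, which 477 of 15908 genes did (3%; 146 higher and 331 lower in S534A). The median difference of the list was -0.02, with 16 positive and 25 negative, beside -0.00 over all genes tested. A second quantile normalization turned that median to 0.01. The median LPS effect of the same genes was 1.86, and 38 of 41 intervals lay wholly within 1.5-fold (0.58 on the log2 scale) either way. The exceptions were Il6, Lcn2 and Gadd45b.

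**Figure D1:**
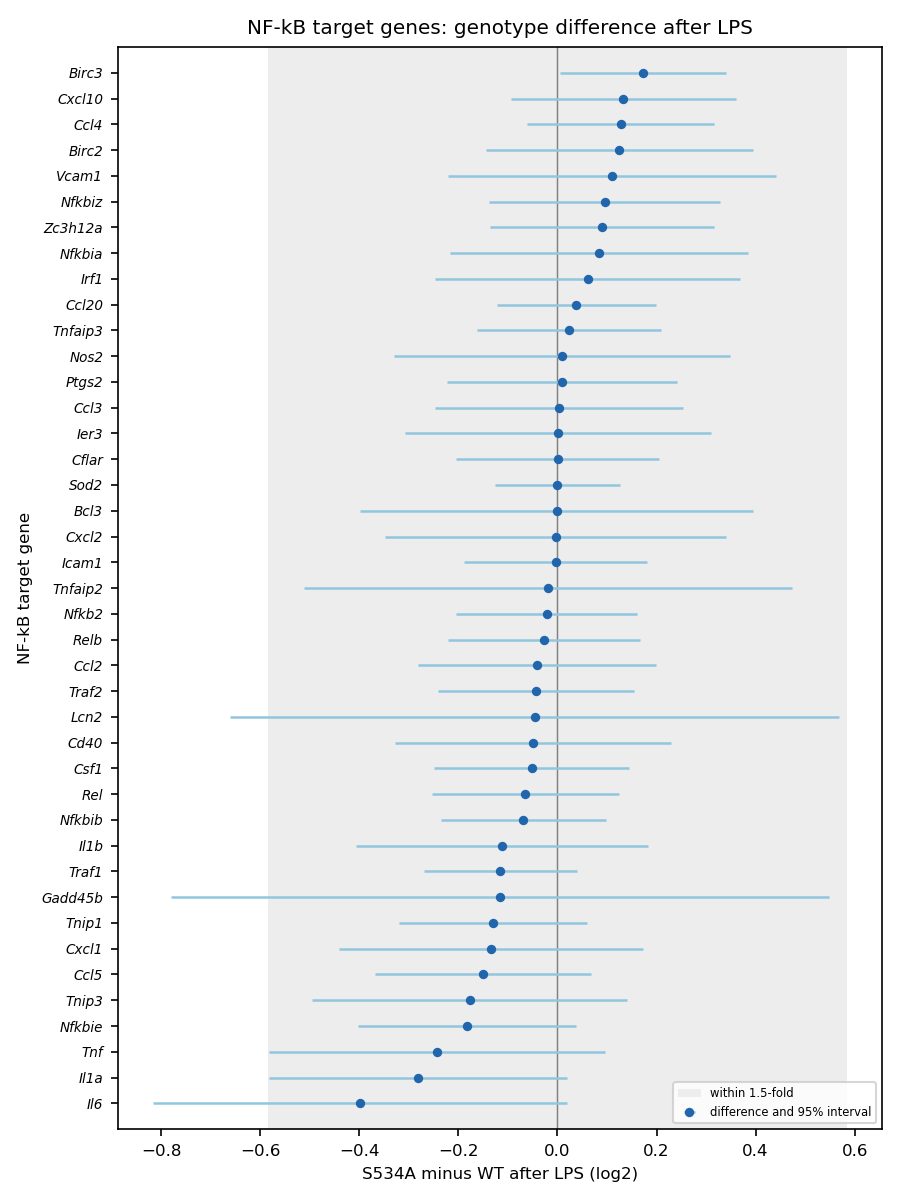
Each point is the log2 difference, S534A minus WT after LPS, of one NF-kB target gene (vertical axis), with its 95% interval from the fit to all 16 arrays. The grey band marks differences within 1.5-fold, and the points run from -0.40 (Il6) to 0.17 (Birc3).

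The feedback inhibitors of the pathway came first in this list. Tnfaip3 encodes A20, an enzyme that shuts off signalling to IKK, and Nfkbia encodes IkB-alpha. For Tnfaip3, WT arrays read 10.05, 9.75, 9.87 and 9.89 and S534A arrays 9.90, 10.04, 9.86 and 9.85. The difference was 0.02 ± 0.09 (SE), and LPS raised the gene by 3.26 ± 0.09 in WT and by 3.30 ± 0.09 in S534A. The groups overlapped throughout. For Nfkbia, WT arrays read 10.90, 10.76, 11.09 and 11.08 and S534A arrays 11.07, 11.11, 10.89 and 11.09, a difference of 0.08 ± 0.14. Nfkbie, which encodes IkB-epsilon, was -0.18 ± 0.10 and had the lowest unadjusted p of the 30 measured pathway components (0.0983). None of those 30 genes lay under an unadjusted p of 0.05. They include the IKK subunits Ikbkb and Ikbkg and the subunits Relb, Rel and Nfkb2. Nfkb1, the gene of p50, and the IKK subunit gene Chuk were listed but not among the genes tested. All 30 intervals were within 1.5-fold, and the list's median was -0.01. Nfkb2, the gene of p100 and p52, was raised by 2.09 ± 0.09 in both genotypes.

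Of 34 listed kinases, cofactors and phosphatases that act on p65, 26 were measured and 25 had intervals within 1.5-fold. The coactivator genes Crebbp (-0.07 ± 0.09) and Ep300 (-0.06 ± 0.11) and the IKK-related kinase genes Tbk1 (0.02 ± 0.09) and Ikbke (-0.14 ± 0.18) were near 0. Pim1, which encodes a kinase, read 11.12, 10.46, 11.04 and 10.93 in WT and 11.30, 11.47, 11.19 and 11.13 in S534A. All 4 S534A arrays stood above the 4 WT arrays, with a difference of 0.39 ± 0.19 (unadjusted p 0.0625), which was 0.25 without WT LPS array 2. Groups did not overlap in 323 of all genes tested (2.03%). Socs1, a suppressor of cytokine signalling that also binds p65, was 0.18 ± 0.09 (unadjusted p 0.0474; 0.117 without WT LPS array 2).

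Cytokine genes came next. Il6, the main inducer of the hepatic acute-phase response, read 6.12, 7.01, 5.76 and 6.04 in WT and 6.25, 5.50, 5.87 and 5.71 in S534A. The highest value belonged to WT LPS array 2 and the groups overlapped. All other Il6 values lay below the LPS array medians of 6.37 to 6.42, so the signal was low. The difference was -0.40 ± 0.20 (95% interval -0.82 to 0.02, unadjusted p 0.0599), and -0.14 without WT LPS array 2. Tnf, the first-wave cytokine of macrophages, read 8.89, 9.36, 8.60 and 8.77 in WT and 8.57, 8.77, 8.56 and 8.75 in S534A. Here too WT LPS array 2 was highest, and the difference of -0.24 ± 0.16 became -0.09 without it. Il1b, the interleukin-1 beta gene, was -0.11 ± 0.14 and 0.01 without that array.

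Chemokine and adhesion genes with larger LPS effects followed. Ccl2, the monocyte attractant, read 10.94, 11.05, 10.77 and 10.79 in WT and 10.76, 10.86, 10.81 and 10.95 in S534A, a difference of -0.04 ± 0.11. Its LPS effect was 4.29 ± 0.11 in WT and 4.39 ± 0.11 in S534A. Cxcl10, the interferon-inducible T cell attractant, read 13.68, 13.69, 13.61 and 13.70 in WT and 13.85, 13.69, 13.86 and 13.80 in S534A. The S534A mean was higher by 0.13 ± 0.11, the groups overlapped, and LPS raised the gene by 5.36 ± 0.11 in WT and 5.37 ± 0.11 in S534A. These values after LPS lay high in the range, where a difference could be hard to see. Ccl3, a macrophage inflammatory chemokine, was raised by 5.28 ± 0.12 in both genotypes and differed by 0.00 ± 0.12. Icam1, the endothelial ligand of leukocyte integrins, read 11.20, 10.95, 10.90 and 11.19 in WT and 10.95 to 11.21 in S534A, a difference of -0.00 ± 0.09. The neutrophil attractants Cxcl1 (-0.13 ± 0.15) and Cxcl2 (-0.00 ± 0.16) had wider intervals that included 0. Birc3 read 10.16, 9.86, 9.88 and 9.98 in WT and 10.23, 10.02, 10.19 and 10.14 in S534A, a difference of 0.17 ± 0.08 (unadjusted p 0.0437; 0.118 without WT LPS array 2).

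**Figure D2:**
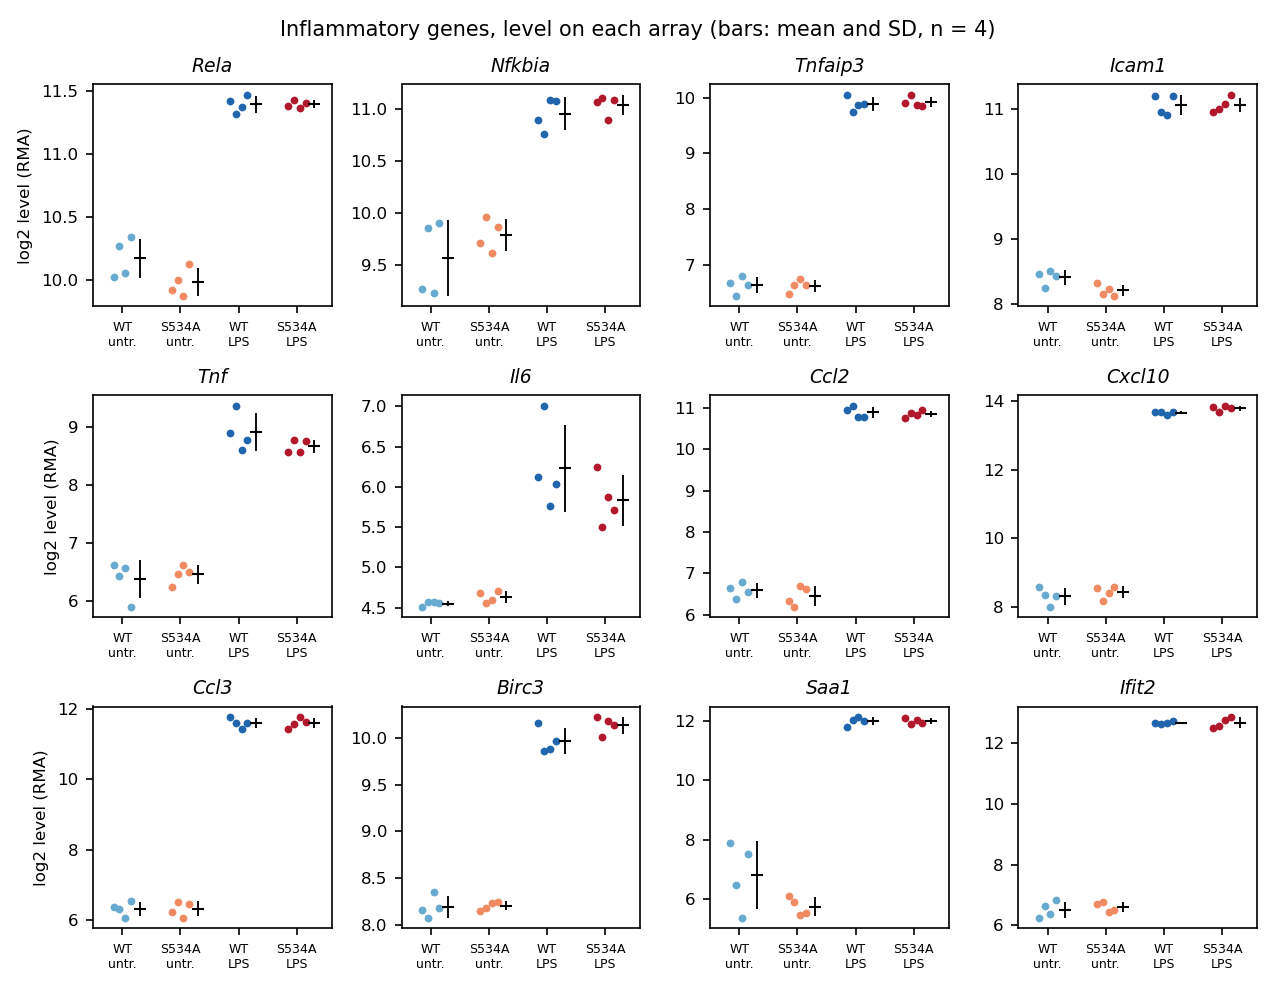
Log2 RMA level (vertical axes) of 12 inflammatory genes on each of the 16 arrays, with points for arrays and bars for the group mean and SD of 4 arrays. In each panel the LPS groups stand above the untreated groups, and the WT and S534A arrays after LPS overlap, as for Rela between 11.31 and 11.47.

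Of 47 listed cytokines and chemokines 43 were measured, with 18 positive, 25 negative, a median of -0.04 and 1 gene, Il18, at an unadjusted p under 0.05 (-0.18 ± 0.08). The median without WT LPS array 2 was -0.01. The widest difference was in Cxcl13, a B cell attractant, which read 10.44, 10.48, 10.68 and 10.37 in WT and 9.95, 9.54, 9.92 and 9.85 in S534A. The groups did not overlap, yet the SE of 0.35 came from a wide spread in the untreated groups (SD 0.97 in WT and 0.57 in S534A), and the difference of -0.68 had an unadjusted p of 0.0723. Il12b, the p40 subunit of interleukin-12, differed by -0.16 ± 0.11 and by -0.30 without WT LPS array 2, where its unadjusted p was 0.00151. Its WT values after LPS (5.68 to 6.23) lay below the LPS array medians of 6.37 to 6.42.

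Acute-phase genes, made by hepatocytes in response to interleukin-6 and interleukin-1, had a median difference of 0.00 (35 of 39 measured, 18 positive and 17 negative). They were bounded less closely, with 27 of 35 intervals within 1.5-fold beside 15239 of 15908 over all genes. Saa1, a serum amyloid A gene, read 11.82, 12.05, 12.16 and 12.01 in WT and 12.12, 11.90, 12.03 and 11.95 in S534A. These groups overlapped at a difference of -0.01 ± 0.37, the wide SE coming with an SD of 1.14 among untreated WT arrays. Saa3 (0.05 ± 0.15), the protease inhibitor gene A2m (-0.02 ± 0.13) and the hepcidin gene Hamp (-0.04 ± 0.11) were as close. Orm3, an orosomucoid gene, was the member at an unadjusted p under 0.05, with -0.54 ± 0.23 (0.0352), and it overlapped between groups. Its sequence is close to those of its neighbours Orm1 and Orm2, so probes may share signal.

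Interferon-stimulated genes, which LPS induces through the TRIF branch of TLR4, were bounded closely. Of 42 listed, 34 were measured, and all 34 intervals lay within 1.5-fold, while their median LPS effect was 3.63. The median difference was -0.04, with 9 positive and 25 negative. Ifit2 read 12.67, 12.63, 12.65 and 12.71 in WT and 12.48, 12.57, 12.75 and 12.87 in S534A, with a difference of 0.00 ± 0.12 against an LPS rise of 6.15 ± 0.12 in WT. Oas1a, a sensor of double-stranded RNA, read 9.03, 9.18, 9.03 and 9.26 in WT and 8.88, 8.94, 8.72 and 8.78 in S534A. Its groups did not overlap, and it had the list's lowest unadjusted p (0.00695) at -0.30 ± 0.10. The receptor side of the pathway was as even. None of 23 measured TLR4 signalling genes lay under an unadjusted p of 0.05, with Tlr4 at -0.19 ± 0.16 (-0.01 without WT LPS array 2), Myd88 at 0.05 ± 0.08 and Cd14 at -0.15 ± 0.21. In antigen presentation (20 measured, median -0.05, and -0.02 without WT LPS array 2), the immunoproteasome gene Psmb8 had -0.18 ± 0.08 after LPS, -0.11 without that array, and -0.22 ± 0.08 without treatment.

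**Figure D3:**
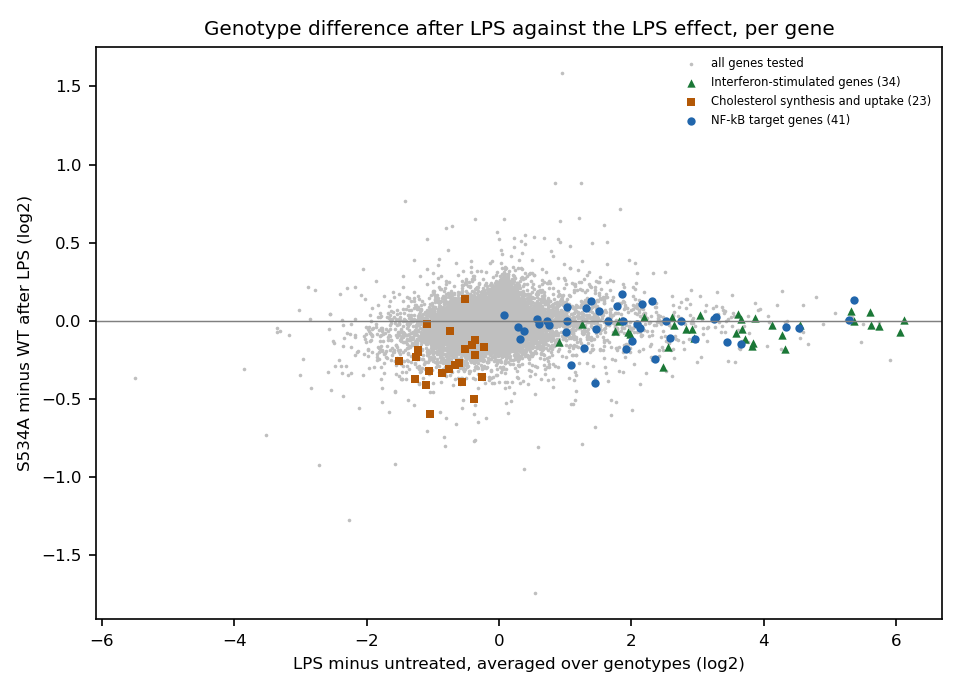
Each point is a gene, with the LPS effect averaged over genotypes on the horizontal axis and S534A minus WT after LPS on the vertical axis, both log2. NF-kB targets and interferon-stimulated genes spread far to the right with vertical values near 0, while 22 of 23 cholesterol genes lie below 0.

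Read over the whole LPS response, 694 genes were called and at least 2-fold higher after LPS (4.36%), and 601 were called and at least 2-fold lower (3.78%), averaged over genotypes. The genotype difference had a median of -0.01 over the 694 (322 positive and 372 negative) and of -0.08 over the 601 (156 positive and 445 negative). In the second class 44 genes lay at an unadjusted p under 0.05, all lower in S534A. Without WT LPS array 2 that median was -0.01 and the number 20, so the lean of the class moved with 1 array. Over all genes, 15239 of 15908 intervals lay within 1.5-fold. A gene at the median SE of 0.099 has an unadjusted 95% interval of 0.21 either way. At that SE a smaller difference would not reach even an unadjusted p of 0.05. Larger differences could still miss the adjusted threshold with 4 arrays per group, as Gpr155 (0.39 ± 0.08) and Angptl8 (-1.27 ± 0.33) did.

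Cholesterol synthesis and uptake genes were the list with the most members at an unadjusted p under 0.05. Of 28 listed, 23 were measured, 0 passed the adjusted threshold, and 7 lay under the unadjusted one, all lower in S534A, beside the 3% of all genes. The median difference was -0.26, with 22 negative members and 1 positive, Scap (0.14 ± 0.07), the escort protein of the SREBP factors. Without WT LPS array 2 the median was -0.18 with 4 members under the unadjusted threshold. Leaving out each LPS array in turn gave medians from -0.34 to -0.17 with 21 or 22 members negative, and in the untreated livers the median was 0.03. The median LPS effect on these genes, averaged over genotypes, was -0.74.

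Many of the members lie along one path from acetyl units to cholesterol, and others, such as Scap, Insig1 and Srebf2, regulate it. Hmgcs1, which makes HMG-CoA at its start, read 10.92, 11.47, 10.94 and 11.40 in WT and 9.83, 11.11, 10.28 and 11.11 in S534A, a difference of -0.60 ± 0.25 with overlapping groups. Fdft1 (-0.33 ± 0.14) and Sqle (-0.50 ± 0.17) encode squalene synthase and squalene epoxidase. Sqle read 10.69, 11.22, 10.43 and 10.82 in WT and 9.91, 10.52, 10.04 and 10.70 in S534A, where S534A arrays 2 and 4 reached the WT range. Of the later sterol steps, Msmo1 was -0.41 ± 0.15, Tm7sf2 was -0.22 ± 0.09 and Dhcr7 was -0.31 ± 0.11. Tm7sf2 lies on chromosome 19, 23 tested genes from Rela. Nsdhl, a sterol dehydrogenase, read 11.21, 11.52, 11.24 and 11.44 in WT and 10.68, 11.04, 10.92 and 11.20 in S534A. It was the one member whose groups did not overlap, and its difference was -0.39 ± 0.10 (unadjusted p 0.00126, adjusted p 1 by limma). Without treatment Nsdhl differed by 0.13 ± 0.10, and the interaction of -0.53 ± 0.14 had an adjusted p of 0.925. Insig1 (-0.23 ± 0.16) and Srebf2 (-0.17 ± 0.11), which regulate the path, were also negative, at -0.14 and -0.11 without WT LPS array 2. WT LPS array 2 was the highest WT array for Hmgcs1 (11.47), Sqle (11.22) and Nsdhl (11.52). Averaged over the list, WT LPS arrays read 10.25, 10.59, 10.19 and 10.47 and S534A LPS arrays 9.86, 10.29, 9.95 and 10.39, so the groups overlapped. Arrays 2 and 4 were the higher ones in both genotypes, though replicate numbers were not taken to pair the samples.

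Other metabolic lists lay nearer to 0. Lipogenesis genes had a median of -0.03 (0.00 without WT LPS array 2) and fatty acid oxidation genes of 0.02 (0.01 without it), with 0 of 30 and 0 of 29 under the unadjusted threshold. Of 28 bile acid genes 1 was, Cyp8b1, the sterol 12-alpha-hydroxylase, which read 10.96, 10.55, 10.91 and 10.88 in WT and 10.07, 10.37, 10.60 and 10.43 in S534A. Its difference was -0.45 ± 0.15 (unadjusted p 0.0091) and -0.54 without WT LPS array 2, the lowest of the WT arrays. Cyp7a1, whose enzyme limits the rate of bile acid production, had an LPS effect of -5.01 ± 0.40 in WT and -5.99 ± 0.40 in S534A and differed between genotypes by -0.37 ± 0.40, and by -0.02 without WT LPS array 2. Of 33 drug-metabolising enzyme genes 3 lay under the unadjusted threshold, all lower, among them the glutathione transferase gene Gstt1 (-0.18 ± 0.06). Of 36 glucose and amino acid genes 2 did, among them Cth, described next. The 17 clock genes had only 4 intervals within 1.5-fold, since they varied widely among arrays, and the repressor gene Nr1d1 was -0.65 ± 0.25 with overlapping groups. Of 29 immediate early and mRNA decay genes 22 were positive, with a median of 0.09 and 0 under the unadjusted threshold. That median was 0.06 without WT LPS array 2 and 0.04 without S534A LPS array 1.

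**Figure D4:**
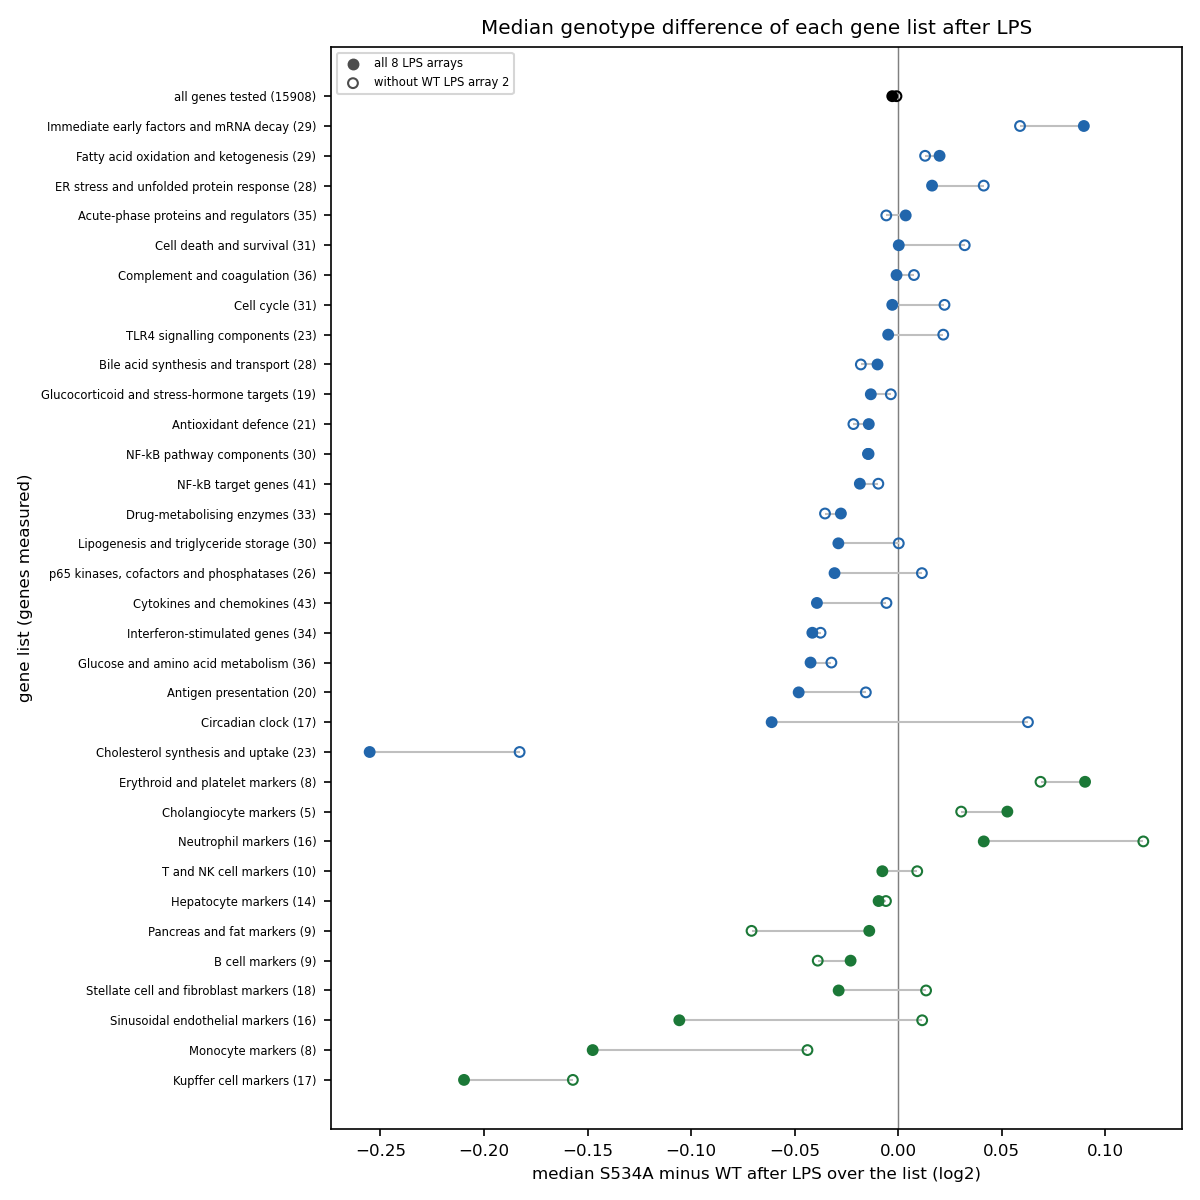
Median log2 difference, S534A minus WT after LPS, of each of 33 gene lists and of all genes (horizontal axis), with filled points for all 8 LPS arrays and open points without WT LPS array 2. Cholesterol genes (-0.26 and -0.18) and Kupffer cell markers (-0.21 and -0.16) lie farthest from 0, and sinusoidal endothelial markers move from -0.11 to 0.01 when the array is left out.

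Cell type markers were read for the same arrays. In whole liver, fewer cells of a type and less RNA per cell cannot be told apart. Of 17 Kupffer cell markers 16 were lower in S534A, with a median of -0.21, and 4 lay under the unadjusted threshold but 0 under the adjusted one. Without WT LPS array 2 the median was -0.16 with 1 member under the unadjusted threshold, and without S534A LPS array 2 the median was -0.12. The list mean ran from 8.43 to 8.81 on WT LPS arrays and from 8.28 to 8.51 on S534A LPS arrays. The untreated median was -0.15, so the lean was seen in arrays of either treatment. Clec4f, the C-type lectin restricted to these cells, read 9.37, 9.47, 9.37 and 9.59 in WT and 9.13, 8.99, 9.37 and 9.36 in S534A, a difference of -0.24 ± 0.10 with groups apart only beyond the second decimal. The complement receptor gene Vsig4 read 9.11, 8.96, 8.67 and 8.96 in WT and 8.26, 7.96, 8.86 and 8.71 in S534A, at -0.48 ± 0.20. The scavenger receptor gene Marco (-0.35 ± 0.14) overlapped too, and Timd4, a marker of resident Kupffer cells, was -0.13 ± 0.16 (-0.02 without WT LPS array 2). The part of these markers in the cytokine and cholesterol values above was not tested.

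Of 8 monocyte markers 7 were negative, with a median of -0.15 (-0.04 without WT LPS array 2) after LPS and of -0.12 without treatment. Of 8 erythroid and platelet markers 7 were positive, with a median of 0.09 (0.07 without that array). Of 16 sinusoidal endothelial markers 13 were negative, with a median of -0.11, which was 0.01 without WT LPS array 2. Pecam1, the endothelial adhesion molecule, read 7.23, 7.71, 7.51 and 7.39 in WT and 7.14, 7.12, 7.14 and 7.20 in S534A. Its groups did not overlap, and the difference of -0.31 ± 0.09 (unadjusted p 0.00251) was -0.23 without that array. Lyz2, the lysozyme gene of myeloid cells, was lower after LPS (-0.33 ± 0.11) and without treatment (-0.45 ± 0.11), in neither case past the adjusted threshold (1 and 0.208). Neutrophil markers had a median of 0.04 (0.12 without WT LPS array 2), with list means of 7.03 to 7.56 in WT and 7.10 to 7.43 in S534A. Hepatocyte markers had a median of -0.01, and all 14 intervals lay within 1.5-fold. Their list means, 13.38 to 13.42 in WT and 13.33 to 13.40 in S534A, lay high in the range, where a difference could be hard to see.

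The genes of lowest unadjusted p are given as values, since none passed the adjusted threshold, where each adjusted p was 1. Cth encodes cystathionine gamma-lyase, the last step of the transsulfuration pathway to cysteine. It read 12.65, 12.64, 12.60 and 12.76 in WT and 12.48, 12.28, 12.39 and 12.27 in S534A. The groups did not overlap, and the difference was -0.30 ± 0.07 (unadjusted p 0.000421) and -0.31 without WT LPS array 2. Without treatment Cth differed by 0.13 ± 0.07, and the interaction of -0.43 ± 0.10 had an adjusted p of 0.875. Acss3, a mitochondrial short-chain acyl-CoA synthetase, read 8.29, 8.45, 8.07 and 8.25 in WT and 7.70, 6.85, 7.62 and 7.80 in S534A. S534A array 2 was lowest by far, and the difference was -0.77 ± 0.18.

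Angptl8, a hepatic inhibitor of lipoprotein lipase that follows feeding, read 9.42, 10.47, 9.14 and 9.21 in WT and 7.61, 8.80, 8.30 and 8.44 in S534A. Its difference was -1.27 ± 0.33, and -0.97 without WT LPS array 2, its highest array. Untreated livers differed by -0.74 ± 0.33 in the same direction. Gpr84, a fatty acid receptor of activated macrophages that LPS raised by 1.85 ± 0.14 in WT, read 7.90, 7.75, 7.42 and 7.49 in WT and 7.08, 7.0, 7.25 and 7.20 in S534A. It was one of the LPS-raised genes with groups apart, at -0.51 ± 0.14. Others of the 12 lowest were the complement regulator gene Cd59b (-0.37 ± 0.10), the NKG2D ligand gene Raet1d (-0.71 ± 0.19), Id1 (-0.59 ± 0.16), an inhibitor of basic helix-loop-helix factors, and Mn1 (-0.37 ± 0.10).

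Toward higher levels in S534A, Gpr155, a lysosomal cholesterol-sensing protein, read 8.94, 8.86, 8.82 and 9.02 in WT and 9.48, 9.21, 9.28 and 9.24 in S534A. Its difference of 0.39 ± 0.08 (unadjusted p 0.000259) stood beside 0.29 ± 0.08 (unadjusted p 0.00365) in untreated livers. Tesmin, a gene known from testis, read 6.17, 5.88, 5.98 and 6.06 in WT and 6.44, 6.26, 6.48 and 6.26 in S534A. All S534A arrays were above all WT arrays, by 0.34 ± 0.08 on average, at a level near the array median. Gadd45a, a stress and growth arrest gene, read 8.12, 7.58, 7.94 and 7.71 in WT and 8.53, 8.49, 8.19 and 8.25 in S534A, at 0.53 ± 0.16. Tm4sf20, a membrane protein gene, was 0.48 ± 0.12, and Reg3g, an antibacterial lectin gene, was 0.50 ± 0.16 with overlapping groups.

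**Figure D5:**
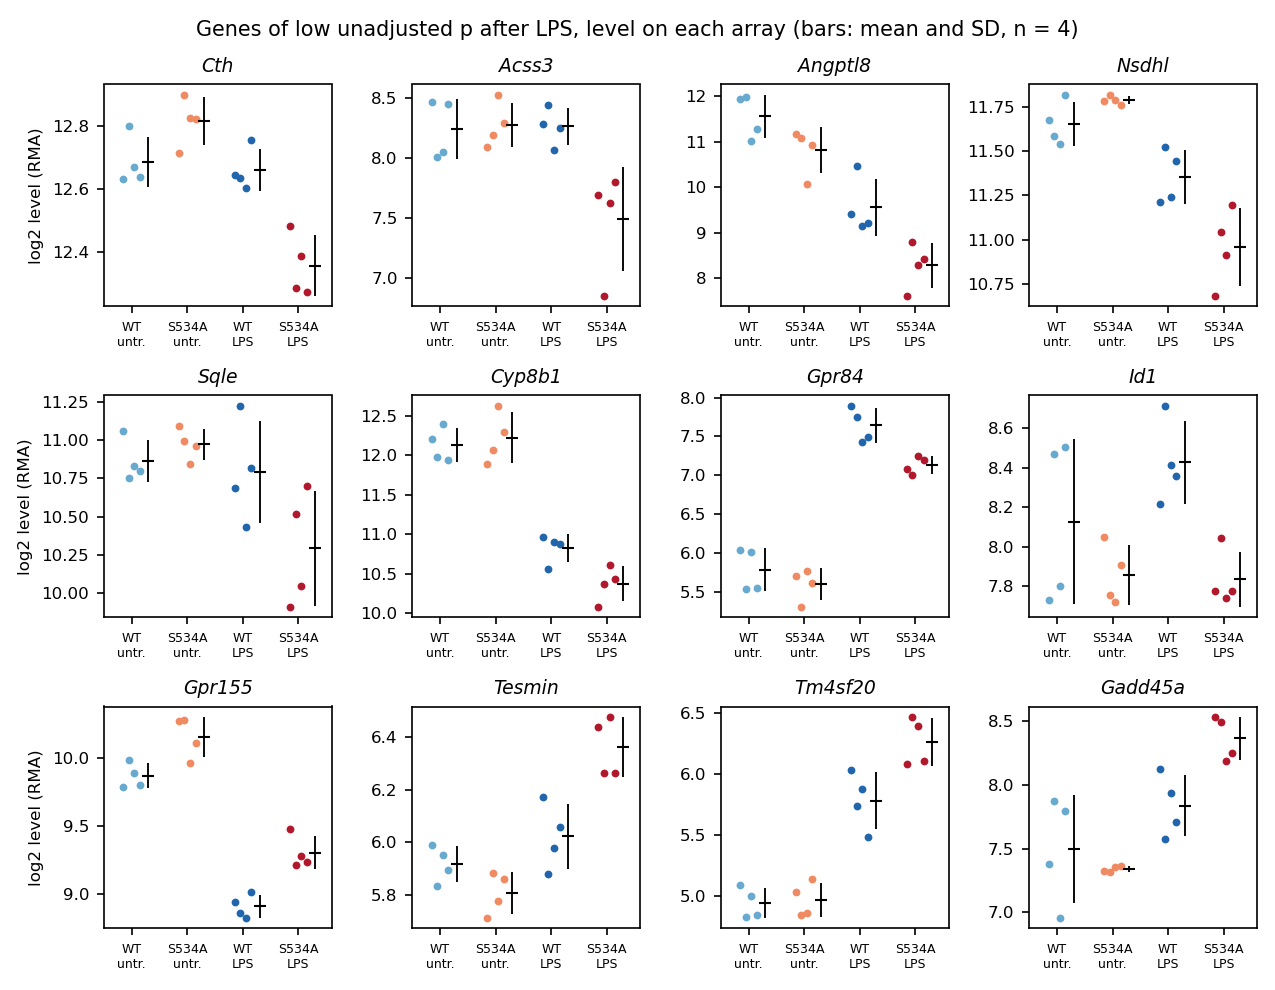
Log2 RMA level (vertical axes, not starting at 0) of 12 genes of low unadjusted p on each of the 16 arrays, with points for arrays and bars for the group mean and SD of 4 arrays. For Cth the S534A LPS arrays (12.27 to 12.48) lie below the 3 other groups, while for Gpr155 S534A means are higher in both treatments.

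The untreated arrays give S534A minus WT from other samples, although the SE of both comparisons comes from the one fit to all 16 arrays. There 2 genes passed (0.0126%), Igfbp1, which encodes an insulin-like growth factor binding protein, at 2.00 ± 0.26 (adjusted p 0.0168) and Mrps18a, a mitochondrial ribosomal protein gene, at -0.53 ± 0.08 (adjusted p 0.0344). An unadjusted p under 0.05 was seen for 1412 genes (8.88%). After LPS the same genes differed by 0.37 ± 0.26 (0.15 without WT LPS array 2) and -0.13 ± 0.08. For Igfbp1 the WT LPS arrays read 12.75, 11.90, 12.90 and 12.63 and the S534A LPS arrays 13.31, 12.90, 12.72 and 12.73, so the groups overlapped. Its interaction of -1.63 ± 0.37 had an adjusted p of 0.875. The interaction passed for 0 genes (0%; limma, 766 at an unadjusted p under 0.05), so no difference after LPS was shown to depart from that without treatment. The mean of the 17 clock genes was spread widely among untreated arrays. It read 8.54, 9.41, 8.36 and 9.51 in WT and 9.33, 9.40, 8.46 and 9.31 in S534A. The part of this spread in the untreated differences and the interactions was not tested.

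Of the 477 genes under the unadjusted threshold after LPS, 266 had the same sign without treatment (55.8%), beside 50.7% of all genes, and 67 were under it in both comparisons, 46 with the same sign. Angptl8, Gpr155, Mn1, Raet1d and Lyz2 were among these 46. Mn1, a transcriptional coregulator gene, read 7.18, 7.42, 7.39 and 7.24 in WT and 6.90, 6.99, 7.01 and 6.82 in S534A after LPS, apart by -0.37, and differed by -0.40 ± 0.10 without treatment. Raet1d was -0.71 ± 0.19 and -0.59 ± 0.19. Across all genes the 2 differences had a Pearson r of 0.05, a value over genes, which are not independent replicates.

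Genes next to Rela on chromosome 19 tend to be inherited with the targeted allele through backcrosses. The order of genes was taken from RefSeq. Of the 100 tested genes nearest to Rela, 1 was higher and 3 were lower at an unadjusted p under 0.05, close to the 3% of all genes, with a median difference of 0.01 and 99 of 100 intervals within 1.5-fold. Over the whole chromosome 4 of 550 genes were higher and 15 lower at that threshold, 3.98% of the 477 such genes, where the chromosome holds 3.46% of tested genes. Ap5b1, which encodes an adaptor complex subunit and lies 3 tested genes from Rela, read 6.97, 7.17, 6.82 and 6.96 in WT and 6.72, 6.85, 6.70 and 6.64 in S534A. It was the lowest in p of the 100 at -0.25 ± 0.08 (0.00641), with groups that overlapped, and differed by -0.08 ± 0.08 without treatment. The phosphatase gene Ppp1ca, 55 tested genes from Rela, was lower after LPS (-0.22 ± 0.09) and without treatment (-0.29 ± 0.09). Tesmin lies 83 tested genes away on that side. Tm7sf2, a member of the cholesterol list, was among the 3 lower genes of the 100. It lies 23 tested genes from Rela on the other side and differed by 0.03 ± 0.09 without treatment. Whether its difference after LPS came with the targeted allele was not tested.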

How the data were processed

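Whole-liver RNA of 16 samples was hybridised to whole-transcript arrays, 4 in each of 4 groups taken from the sample titles. The deposited values are log2 levels, and the authors used RMA, per the submitters' processing notes. The RMA software, and the level at which probe sets were summarised, are not named by the labels, and signal over background was not assessed without scanner files, so the number of arrays limits precision. Of 35556 probe sets 21789 had 1 gene symbol, 1621 several and 12146 none, and 21698 matched RefSeq by gene identifier with 0 symbols changed. Probe sets had to exceed their array's 30th percentile on 4 or more arrays, and the one of highest mean stood for a gene, which gave 15908 genes.

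Group means were fitted over all 16 arrays in R 4.3.3 by limma 3.58.1 (lmFit and eBayes; 12 residual degrees of freedom, prior 4.28). Tests were two-sided, adjusted by Benjamini-Hochberg over all genes with a threshold of 0.05. The code of the fit was run on simulated data with independent noise, of the same SD on every array for a given gene. That setting lacks the unequal group spread and the array that stood apart, so it cannot show how well the test suits these data. Figures used matplotlib 3.10.9 in Python 3.11.15.

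The 33 lists (814 names, 712 measured) and the comparison itself were chosen with earlier results of these data known. They are described by counts and medians. Named genes were Rela, the 12 of lowest p per direction, up to 4 of lowest p per list and the 8 largest LPS rises among inflammatory lists, and from these 159 genes the text names a selection. Predicted and small RNA genes were counted, not named. Genes outside this rule, among them Ccl2, Tnfaip3, Nfkbia, Icam1, Cyp7a1, Insig1, Timd4, Tlr4 and Alb, were chosen after their values were seen, as was leaving out WT LPS array 2 for the lists. Replicate numbers were not taken to pair the samples. Same-numbered LPS arrays correlated by -0.30 to 0.20 in their deviations from the group means. Same-numbered untreated arrays correlated by -0.49, 0.59, 0.59 and -0.20 for numbers 1 to 4. Untreated arrays of differing numbers correlated by -0.59 to 0.57.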

Additional observations from a re-analysis of the deposited data

Results flagged for a closer look

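In 8 of 182 groups of 4 arrays (91 genes, WT and S534A after LPS), one array lay far from the other 3, with a gap to its neighbour, as a share of the group's range, above Dixon's 95% critical value. That is 4.40% of groups, where chance gives about 1 in 20. On WT LPS array 2, Smad7 was high at 8.67 (others 7.54 to 7.69), Id3 was high at 10.46 (others 9.86 to 9.96) and Il12b was low at 5.68 (others 6.19 to 6.23). This is the array that stood apart on the first principal component. Elsewhere, Ctse was low on WT LPS array 4 at 6.37 and Cxcl10 on WT LPS array 3 at 13.61. Among S534A arrays, Ikbkb was high on array 1 at 9.09, Id1 was high on array 2 at 8.04 and Psmb8 was low on array 3 at 9.58.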

How the results depend on the processing

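Across 20 alternatives the comparison after LPS kept 0 genes called, with 15 to 724 at an unadjusted p under 0.05 and a lowest adjusted p of 0.482, under array quality weights. Leaving out each LPS array in turn gave 0 to 0 calls. For S534A minus WT in untreated livers, where 2 genes were called, the count was 4 with each array centred on its median, 370 with array quality weights, 4 with trend and robust settings of eBayes, 0 when only the 2 groups were fitted and 0 against a minimum of 1.2-fold, and 0 to 4 when each array was left out. The interaction, with 0 calls, gave 3 with array quality weights and 0 to 2 when each array was left out, 1 without WT LPS array 2 (Polr2i), 1 without untreated WT array 2 and 2 without untreated WT array 4. The cause was not tested. With the replicate number as a block, 0 genes were called after LPS (415 at an unadjusted p under 0.05), 0 without treatment (lowest adjusted p 0.0882) and 0 for the interaction (lowest adjusted p 0.97), and it changed no other call. Of 3001 values for the 159 named genes under 19 alternatives, all moved by less than 1 residual SD and 41 changed sign, none of them among the 54 genes at an unadjusted p under 0.05. Signal over background was not assessed, which limits what low values show.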

Other observations

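Genes that answer to bone morphogenetic protein (BMP) signalling through SMAD factors were singled out after their values were seen, so no test supports the grouping and no member passed the adjusted threshold. After LPS Id1 was -0.59 ± 0.16, Id2 was -0.26 ± 0.08, Id3 was -0.37 ± 0.17 (-0.23 without WT LPS array 2, unadjusted p 0.167), Atoh8 was -0.56 ± 0.15 and the inhibitory SMAD gene Smad7 was -0.76 ± 0.26. Smad7 read 7.69, 8.67, 7.62 and 7.54 in WT and 6.72, 7.51, 7.0 and 7.24 in S534A, apart in all arrays, and -0.50 without WT LPS array 2. Some others of the same pathway were near 0, with Smad6 at -0.09, Smad9 at 0.00, Id4 at 0.07 and Bambi at -0.04. The BMP-regulated iron hormone gene Hamp was at -0.04. Smad9 (mean 6.44 in WT and in S534A) and Id4 (6.25 and 6.32) lay near the LPS array medians of 6.37 to 6.42. Hamp lay high in the range (13.68 and 13.64), so in these genes a difference could be hard to see. Hjv, also of this pathway, was -0.43 ± 0.16 with overlapping groups. Without treatment Id3 differed by -0.82 ± 0.17, Id1 by -0.27 ± 0.16, Id2 by -0.04 ± 0.08, Smad7 by -0.01 ± 0.26 and Atoh8 by 0.17 ± 0.15, of the opposite sign.

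Ctse, which encodes the protease cathepsin E, had the widest negative difference of all genes tested. Its arrays were split between high and low values within each group. It read 9.56, 9.98, 9.39 and 6.37 in WT and 6.70, 6.21, 9.31 and 6.10 in S534A after LPS, and its SD was 2.17 and 1.94 in the untreated groups. The difference of -1.74 ± 1.12 had an unadjusted p of 0.137. Nr0b2, the bile acid-responsive repressor SHP, read 8.66, 10.15, 8.43 and 8.74 in WT and 7.09, 8.13, 8.40 and 8.69 in S534A, a difference of -0.92 ± 0.45 and of -0.53 without WT LPS array 2.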
